A study of Homo sapiens with 4 samples.

Results

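The L1 family and the contactins are immunoglobulin superfamily adhesion molecules of axons and glia, and 10 human genes encode them: L1CAM, CHL1, NRCAM and NFASC of the L1 family, and CNTN1 to CNTN6. They, and the other gene lists described below, were chosen by name with earlier results of these data known. Their counts beside the shares over all genes are therefore a description and not a test. Every NRSF/REST site that overlapped one of the 10 genes or lay within 10 kb of it was taken. This gave 14 of the 5323 sites of the basal list and 12 of the 5059 sites of the increased list. Binding of NRSF/REST was mapped by ChIP-seq, that is, chromatin immunoprecipitation followed by sequencing of the recovered DNA, in H295R/TR SF-1 cells, with a Millipore antibody against NRSF/REST. These cells are a subclone, so a single clone, of the human adrenocortical tumour line H295R that makes additional SF-1, a nuclear receptor of steroid-producing tissues, when doxycycline is present. The basal SF-1 dosage had no doxycycline and the increased SF-1 dosage had doxycycline for 3 days before fixation, with 1 library each. Both dosages share the tumour background and the inducible construct. Another 2 libraries of input DNA were not analysed here. With 1 library per dosage there is no replicate error between dosages, so no test between them was made, and the Wilson 95% intervals below cover counting error over sites only. The lists hold no read counts, so the depth behind a site is unknown.

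NRSF/REST is a zinc finger repressor that binds an element called RE1 and recruits corepressors and histone deacetylases, and it is best known for keeping neuronal genes silent outside the nervous system. Proteins of the L1 family cross the membrane and couple to ankyrin and the spectrin skeleton, whereas contactins are held in the membrane by a glycolipid anchor and work in complexes with L1 family proteins, CASPR proteins and receptor phosphatases. Both families guide axon growth and bundling, and several members organise the nodes of Ranvier and the membrane beside them in myelinated axons.

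The sequences that carry the account are the RE1-like matches inside the sites. The consensus searched for was CTGTCC and GGTGCTG on one strand with 2 bases between them, on both strands, and at most 2 mismatches were allowed over these 13 fixed bases. All sequences are read from hg19, 5′ to 3′ on the strand given, and capitals mark the 15 bases aligned to the consensus. A substitution is written as the consensus base, its position counted from 1 where the consensus begins, and the base in the genome. The exact matches and those with 1 mismatch that lay in a site at both dosages were the following.
L1CAM, exact, chrX:153140957-153140977, plus strand: ttcgCTGTCCCTGGTGCTGaa
L1CAM, G12C, chrX:153140999-153141019, plus strand: gtccCTGTCCATGGTCCTGac
NRCAM, exact, chr7:107964072-107964092, plus strand: gacaCTGTCCCAGGTGCTGga
CNTN4, exact, chr3:2852597-2852617, minus strand: agagCTGTCCCAGGTGCTGat
NFASC, G9A, chr1:204806791-204806811, plus strand: gtcgCTGTCCAGAGTGCTGac
CNTN2, G12T, chr1:205014059-205014079, minus strand: agccCTGTCCATGGTTCTGca

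Matches with 2 mismatches were the best in the other sites of NRCAM and CNTN2 that were present at both dosages and in 1 CNTN4 site of the basal list. NRCAM and CNTN2 carried the same pair of substitutions.
NRCAM, G3C and G12C, chr7:107988246-107988266, plus strand: agcgCTCTCCTTGGTCCTGag
CNTN2, G3C and G12C, chr1:205023305-205023325, plus strand: gggaCTCTCCATGGTCCTGga
CNTN4, G3A and G15T, chr3:2193186-2193206, plus strand: ggtgCTATCCAAGGTGCTTgg

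NRSF/REST sites were called at 7 of the 10 genes at the basal dosage and at the same 7 genes at the increased dosage: L1CAM, NRCAM and NFASC of the L1 family, and CNTN1, CNTN2, CNTN4 and CNTN5 of the contactins. CHL1, CNTN3 and CNTN6 had no site at either dosage. The L1 family held 5 sites at basal and 4 at increased SF-1 dosage, and the contactins held 9 and 8. The L1 genes were 24.7 to 309 kb long and the contactin genes 35.4 to 1338 kb, and these counts were not adjusted for length. Over all 20163 protein-coding genes of the annotation, 13.9% had a site at the basal and 13.6% at the increased dosage. All member sites overlapped the gene itself, and none lay only in the 10 kb to either side.

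**Figure D1:**
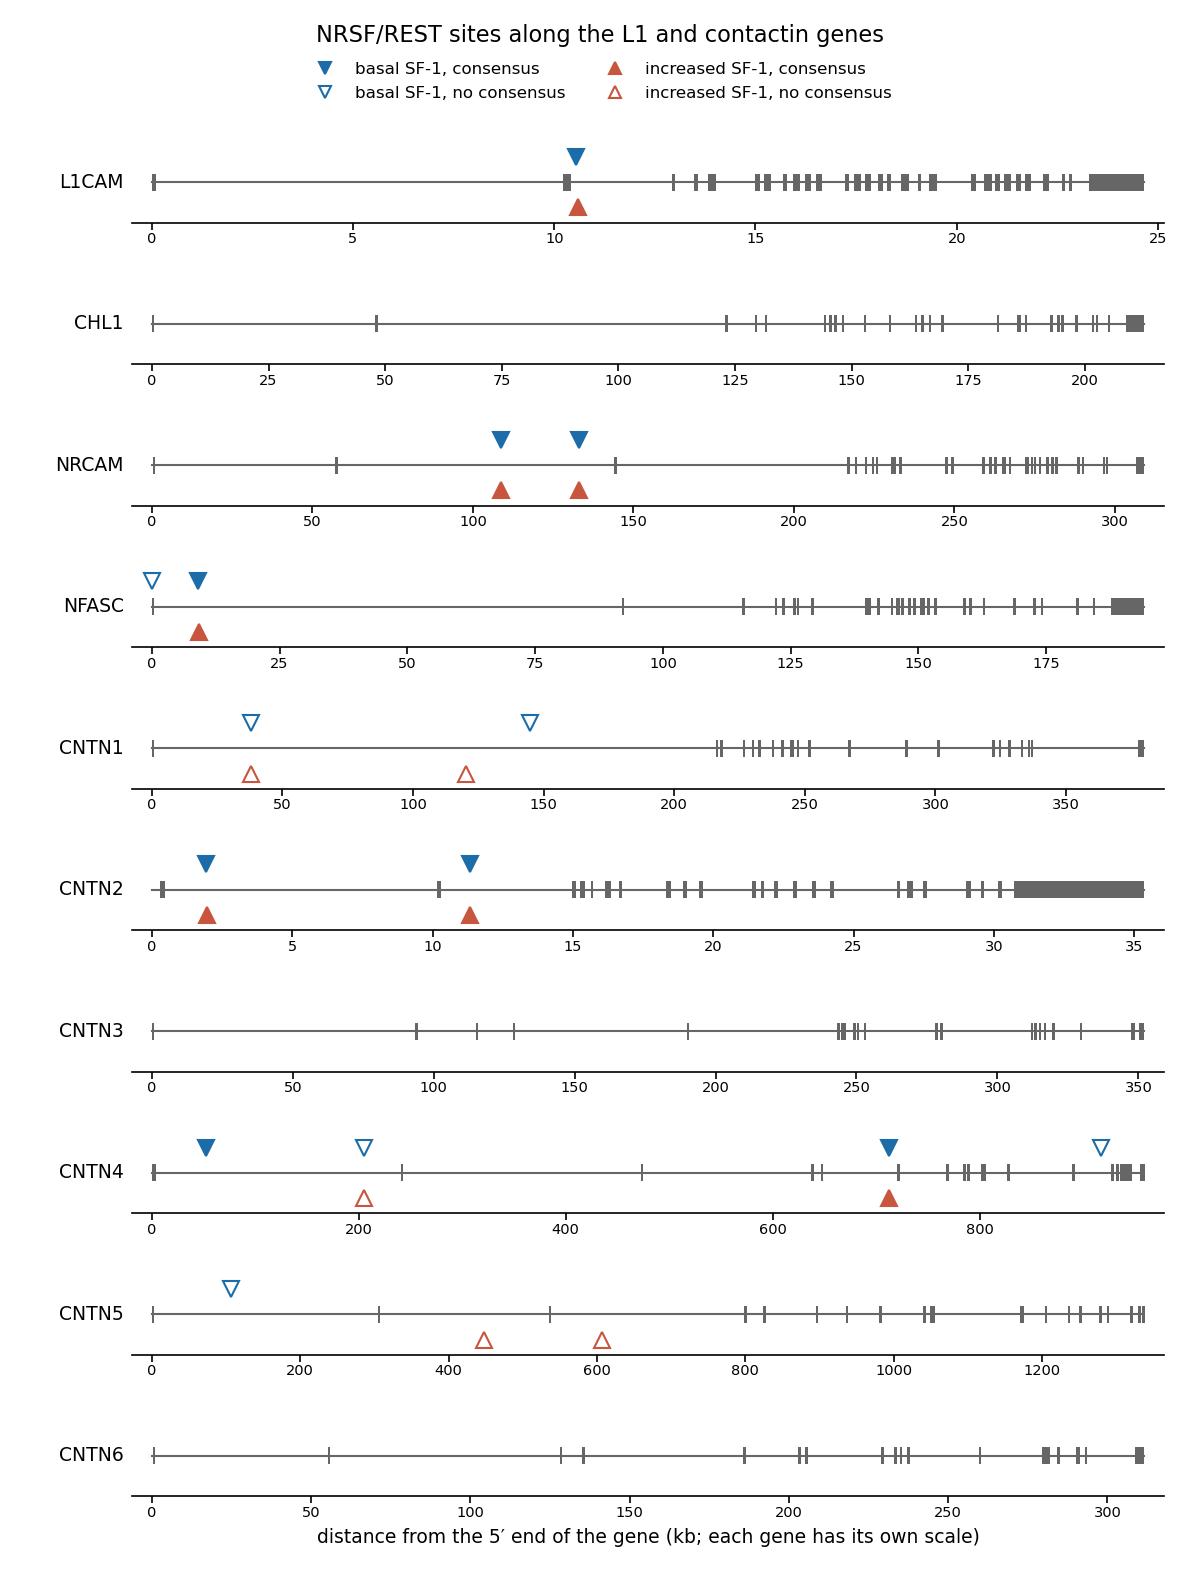
NRSF/REST sites along the 10 genes, plotted as kb from the 5′ end of each gene, with exons of the representative (MANE Select) transcript as grey blocks and each gene on its own scale. Triangles above the line are sites at the basal and those below are sites at the increased SF-1 dosage, filled where the site held the consensus at most 2 mismatches. Sites lay mostly in the long introns of the 5′ part of the genes, and CHL1, CNTN3 and CNTN6 had none.

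The share of genes with a site was higher among longer genes, and the members differed in length from 24.7 kb for L1CAM to 1338 kb for CNTN5. Among genes under 50 kb, 9.23% had a site at basal and 8.92% at increased dosage, and both members of this class, L1CAM and CNTN2, had one at both dosages. NFASC, the only member between 50 and 200 kb, had a site at both dosages, in a class where 17.1% of genes had one at basal and 17% at increased dosage. Between 200 and 500 kb, 2 of 5 members, NRCAM and CNTN1, had a site, against 38.2% and 37.2% of all genes of that length, so this share was near the background. CNTN4 and CNTN5 exceeded 500 kb and both had sites, as did 66.4% and 64.2% of genes in their class. With the 10 kb to either side of each, the 10 genes covered 4.32 Mb and held 3.24 sites per Mb at basal and 2.78 sites per Mb at increased dosage. The 1514 Mb covered by all protein-coding genes with the same margins, overlaps counted once, held 2.04 and 1.95 sites per Mb. With 14 and 12 sites, these densities rest on few counts and were not tested.

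**Figure D2:**
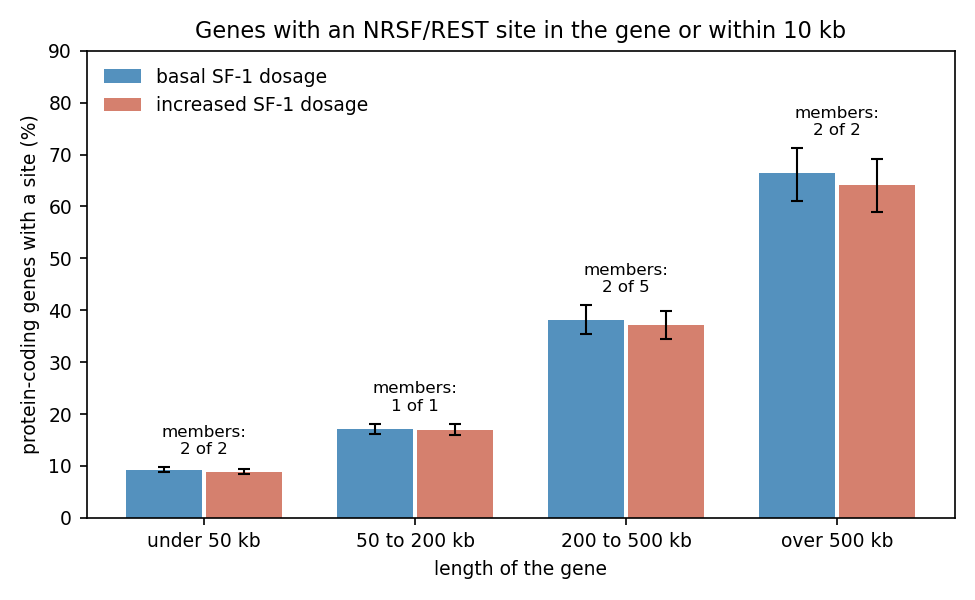
Share of protein-coding genes with an NRSF/REST site in the gene or within 10 kb, in percent, for 4 classes of gene length at the basal and the increased SF-1 dosage, with Wilson 95% intervals as error bars. Counts above the bars give the members of that class with a site, which were the same at both dosages. The share of all genes rose with length from 9.23% to 66.4% at the basal dosage.

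L1CAM, the founding member of its family and a homophilic receptor for axon growth and fasciculation (ENSG00000198910, chrX:153126969-153151627, minus strand, hg19), held the widest site and the first in order of all members. The basal site at chrX:153140451-153141699 was 1249 bp wide and had the order number 13 of 5323. At increased SF-1 dosage the site at chrX:153140451-153141599 was 1149 bp wide and again had the order number 13, of 5059. The order number is the position of the site in the deposited list, and what the authors ordered by is not given in the sources used here. Of all basal sites, 1.09% were wider than the L1CAM site, and of all increased sites 1.92% were.

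The L1CAM site lay 10.6 kb from the start of the representative transcript, so it was not at that start. It covered coding exon 2 of 29 and 4 other annotated transcript starts of L1CAM, and it also overlapped ENSG00000284987. The centre of the exact match lay 334 to 526 bp downstream of these 4 starts. Both matches were intronic in each of the 9 transcripts that span them. Their centres were 42 bp apart on the same strand, and the whole stretch is shown because it was the only member site with 2 matches of at most 1 mismatch.
L1CAM pair of matches, chrX:153140957-153141019, plus strand: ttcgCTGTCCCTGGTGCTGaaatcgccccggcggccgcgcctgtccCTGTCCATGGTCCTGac

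The site was GC-rich, with 61.3% G and C at the basal dosage. All 1218 of its 32-base words occurred once in the genome. Beyond the 10 kb window, the next sites near L1CAM were 49.4 kb upstream in RENBP at both dosages, 149 bp wide at basal and 99 bp at increased dosage, and 28.4 kb downstream at the increased dosage alone, 349 bp wide.

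NRCAM encodes an L1 family protein of nodes of Ranvier and growth cones (ENSG00000091129, chr7:107788068-108097161, minus strand). It had 2 sites, and both were called at both dosages in intron 2 of the 33-exon transcript. The first was chr7:107988001-107988549 at basal (549 bp, order number 1055) and chr7:107988001-107988499 at increased dosage (499 bp, order number 1165), 109 kb from the transcript start. It held the match with 2 mismatches shown above, 18 bp from the basal midpoint and 7 bp from the increased one. The second site was chr7:107963851-107964299 at basal (449 bp, order number 1566) and chr7:107963851-107964249 at increased dosage (399 bp, order number 1636). It was 133 kb from the transcript start and 4857 bp from the nearest annotated start of any NRCAM transcript at the basal dosage. Its match was exact and its sequence was AT-rich, with 35.0% G and C at basal, so the exact matches of L1CAM and NRCAM lay in sites of unlike base composition. In order number and width, however, the site with 2 mismatches came before the site with the exact match at both dosages.

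NFASC encodes neurofascin, which assembles the axon initial segment and the node and paranode (ENSG00000163531, chr1:204797779-204991950, plus strand). Its 2 sites differed in presence. The site at chr1:204797701-204797949 was called at the basal dosage alone (249 bp, order number 2890). It covered noncoding exon 1 and 4 annotated starts of NFASC, was 77.5% G and C, and overlapped ENSG00000287197. Its best match had 3 mismatches, which is outside the limit set for the consensus. It was the only member site to cover the start of the representative transcript, and no site was called there at increased SF-1 dosage.

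The other NFASC site, in intron 1, was called at both dosages. It was 749 bp wide at basal (chr1:204806501-204807249, order number 348) and 849 bp wide at increased dosage (chr1:204806501-204807349, order number 383). The match with G9A lay 73 bp from the basal midpoint and on the strand of the gene, whereas the exact matches in L1CAM, NRCAM and CNTN4 were on the opposite strand to their genes. Another 2 matches with 1 mismatch lay further into NFASC, 128 and 131 kb from the transcript start, and neither was in a site at either dosage.
NFASC, C5G, no site, chr1:204925790-204925810, minus strand: ggcaCTGTGCTAGGTGCTGgt
NFASC, G10C, no site, chr1:204928635-204928655, minus strand: agtcCTGTCCTGGCTGCTGag

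Outside the window, a site 24.8 kb upstream of NFASC was present at both dosages, 199 bp wide at basal and 249 bp at increased dosage, with a best match of 2 mismatches.

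CHL1, the close homologue of L1 with a role in neuronal migration and positioning (ENSG00000134121, chr3:238446-451100, plus strand), was the L1 family member without a site. The nearest sites were 64.0 kb upstream at both dosages, at chr3:174001-174449 at basal (449 bp) and chr3:174051-174449 at increased dosage (399 bp). These overlapped CHL1-AS2 and ENSG00000287140, and their best match had 3 mismatches. CHL1 contained no match with 0 or 1 mismatch.

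CNTN2 encodes TAG-1, a contactin that binds L1 family proteins and takes part in the juxtaparanode (ENSG00000184144, chr1:205012065-205047417, plus strand). It is the shortest contactin gene of the 6, with 35.4 kb, and had 2 sites that were both called at both dosages. The site in intron 1 was chr1:205013851-205014149 at basal (299 bp, order number 2319) and chr1:205013901-205014149 at increased dosage (249 bp, order number 2233). Its midpoint was 1.66 kb from the transcript start at basal, the smallest distance of any member site that did not cover a start. The site in intron 2, chr1:205023251-205023549, was identical at both dosages (299 bp, order numbers 2948 and 2706) and lay 11.1 kb from the start.

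The CNTN2 site in intron 1 also held 2 forms of the SF-1 consensus, CAAGGTCA and CAAGGCCA, at both dosages. CAAGGTCA lay 11 bp from the RE1-like match, and the stretch that holds both is shown because no other member site had an SF-1 form so near a match within the limit. It is read on the minus strand, where the SF-1 form appears as its reverse complement, and capitals mark both elements.
CNTN2 SF-1 form and RE1-like match, chr1:205014059-205014096, minus strand: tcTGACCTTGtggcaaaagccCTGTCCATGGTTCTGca

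CAAGGCCA was 86 bp from the match. Over all members, 3 of 14 basal sites (21.4%, 95% interval 7.57 to 47.6) and 2 of 12 increased sites (16.7%, 4.70 to 44.8) held any of CAAGGTCA, CAAGGACA and CAAGGCCA. Of all sites, 11.4% and 11.5% held any form, which is inside both intervals. CAAGGTCA alone was in 2 of 14 basal member sites (14.3%, 4.01 to 39.9) and 2 of 12 increased ones (16.7%, 4.70 to 44.8). Of all sites, 3.16% and 3.36% held CAAGGTCA, which is below both intervals. For CAAGGACA and for CAAGGCCA, the share of all sites was inside the interval at each dosage. These counts are small and were not tested. The members with an SF-1 form were all contactins, CNTN2 and CNTN4, and no SF-1 form overlapped the best RE1-like match. A match of these letters is a description of the sequence and not of SF-1 binding, which was not part of these lists.

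CNTN4, a contactin of the olfactory and visual systems that binds amyloid precursor protein and PTPRG (ENSG00000144619, chr3:2140497-3099643, plus strand), had 4 sites at basal, the most of any member at that dosage, and 2 at increased dosage, as had NRCAM, CNTN1, CNTN2 and CNTN5. The widest was chr3:2345001-2345849 at basal (849 bp, order number 313) and chr3:2345001-2345699 at increased dosage (699 bp, order number 332), in intron 2 and 205 kb from the transcript start. After L1CAM it was the first member site in order at both dosages, although its best match to the consensus had 4 mismatches. It did hold both parts of the consensus with 8 bases between them in place of 2 and 1 mismatch over the parts, shown with the parts in capitals.
CNTN4 parts 8 bases apart, chr3:2345421-2345441, minus strand: CTGTCCtctgcggtAGTGCTG

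Parts at another distance of 0 to 20 bases, with at most 1 mismatch in each, were not rare. Of all sites without the consensus, 24.8% at basal and 24.1% at increased dosage held them. These shares cover every such distance, and the share for 8 bases with 1 mismatch over both parts was not computed.

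The CNTN4 site with the exact match was wider at increased SF-1 dosage, with 449 bp at basal (chr3:2852401-2852849, order number 902) and 599 bp at increased dosage (chr3:2852251-2852849, order number 846). It lay in intron 6, 712 kb from the transcript start, and CAAGGTCA lay 146 bp from its match. Of its 418 words of 32 bases at basal, 409 occurred once in the genome, and the most frequent of the others occurred 3575 times. The other 2 sites of CNTN4 were called at the basal dosage alone. These were chr3:2193151-2193349 in intron 2 (199 bp, order number 3569), with the match of 2 mismatches shown above, and chr3:3057401-3057499 in intron 14 (99 bp, order number 4052), with a best match of 5 mismatches and CAAGGACA. A further match with 1 mismatch, 669 kb from the start, was in no site.
CNTN4, C5A, no site, chr3:2809487-2809507, minus strand: agcaCTGTACTAGGTGCTGgg

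CNTN1 encodes contactin, the partner of CASPR and neurofascin at paranodes (ENSG00000018236, chr12:41086241-41466217, plus strand). It had 3 loci, all in intron 1, and none held the consensus. Only the first was called at both dosages, at chr12:41124201-41124449 at basal (249 bp, order number 2964) and chr12:41124251-41124449 at increased dosage (199 bp, order number 3165). Its best match had 4 mismatches, all of them in the last 4 bases, and is shown because the first part of the consensus is intact.
CNTN1, G12A, C13T, T14C and G15C, chr12:41124282-41124302, plus strand: gtaaCTGTCCATGGTATCCtg

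The other CNTN1 loci were each called at 1 dosage, chr12:41231001-41231199 at basal (199 bp, order number 4111) and chr12:41206551-41206699 at increased dosage (149 bp, order number 3867), and both had a best match of 5 mismatches.

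CNTN5, a contactin of auditory and visual pathways (ENSG00000149972, chr11:98891679-100229616, plus strand), is the longest member gene, and none of its sites was shared between dosages. The basal site was chr11:98998451-98998599 in intron 1 (149 bp, order number 4762). The increased sites were chr11:99339251-99339349 in intron 2 (99 bp, order number 4835) and chr11:99497951-99498049 in intron 3 (99 bp, order number 4976). All 3 had a best match of 5 mismatches and stood in the last part of their lists, at 89.5% of the basal list and at 95.6% and 98.4% of the increased list. CNTN5 thus counted among the genes with a site at both dosages through different sites. A further basal site lay 19.1 kb downstream of the gene and was not counted.

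CNTN3 (ENSG00000113805, chr3:74311719-74663810, minus strand) and CNTN6 (ENSG00000134115, chr3:1134342-1445901, plus strand), contactins of the developing and adult brain, had no site at either dosage. The nearest site to CNTN3 was 1044 kb away at basal and 386 kb away at increased dosage, and for CNTN6 the distances were 118 and 506 kb. CNTN6 contained no match with 0 or 1 mismatch. CNTN3 contained 1 match with 1 mismatch, in an intron and in no site.
CNTN3, T11G, no site, chr3:74464596-74464616, minus strand: acagCTGTCCCTGGGGCTGtc

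The sites of both lists that overlapped formed 17 loci, of which 9 were called at both dosages, 5 at the basal dosage alone and 3 at the increased dosage alone. As shares of each list, 9 of 14 basal sites (64.3%, 95% interval 38.8 to 83.7) and 9 of 12 increased sites (75%, 46.8 to 91.1) overlapped a site of the other list by at least 1 bp. Over all sites these shares were 64.5% and 67.9%, and both lay inside the intervals. By family, 4 of 5 basal sites of the L1 genes and 5 of 9 of the contactins were shared, and at increased dosage 4 of 4 and 5 of 8 were. These counts are small and were not tested. The loci called at both dosages were those of L1CAM, NRCAM and CNTN2, the intronic NFASC site, 1 locus of CNTN1 and 2 of CNTN4.

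**Figure D3:**
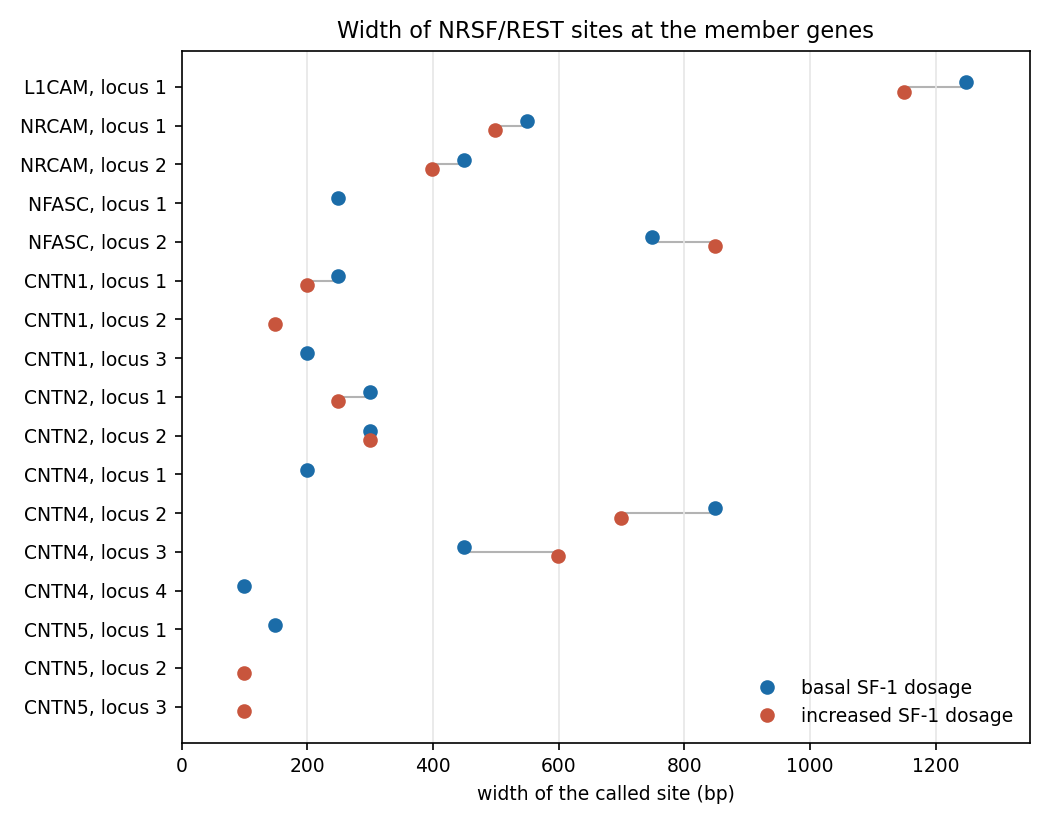
Width in bp of the called site at each of the 17 member loci, with the basal dosage in blue and the increased SF-1 dosage in red. A grey line joins the points of a locus called at both dosages, and a locus with a single point was called at that dosage alone. The loci called at both dosages ranged from 199 to 1249 bp and those called at 1 dosage from 99 to 249 bp.

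Among the 9 loci called at both dosages, the site was wider at basal for 6, wider at increased dosage for 2, NFASC and CNTN4, and of equal width for 1, in CNTN2. The difference was between 0 and 150 bp. Site ends fell on steps of 50 bp in both lists, so a difference of 50 bp is a single step. Over the 3431 basal sites with a partner, 88.7% differed from it by at most 150 bp, 37.9% were wider at basal and 35.4% at increased dosage, and the median difference was 50 bp. The width changes at the members were therefore within the range usual for the lists, and no replicate was there to set them against.

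Loci called at both dosages had the higher median width, although the ranges overlapped, with CNTN1 at 249 and 199 bp among those called at both and NFASC at 249 bp among those called at 1. The median over loci called at both dosages was 449 bp at basal and 499 bp at increased dosage, beside 449 bp for all shared sites in each list. The member sites called at 1 dosage had a median of 199 bp at basal and 99 bp at increased dosage, beside 149 bp for all such sites. Over all 14 and 12 member sites the medians were 299 and 349 bp, and over each whole list the median was 299 bp. The order numbers of the 2 kinds of site overlapped as well. Those of sites called at 1 dosage ran from 2890 to 4976 and those of sites called at both dosages from 13 to 3165.

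**Figure D4:**
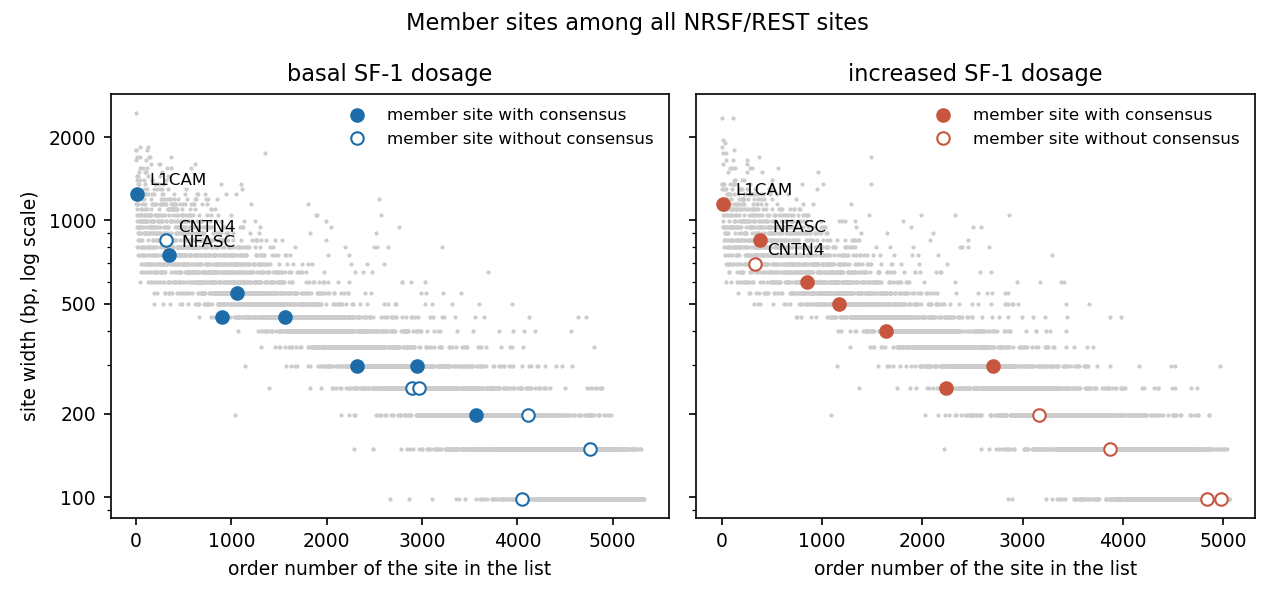
Order number of each site in its list against its width in bp on a log scale, for the basal list (left) and the increased list (right), with all sites in grey and member sites in colour, filled where the site held the consensus at most 2 mismatches. The 3 member sites over 600 bp are named. L1CAM stood at order number 13 in both lists, and the sites of 99 to 149 bp stood at order number 3867 or later and held no consensus.

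The consensus was found in 8 of 14 basal sites (57.1%, 95% interval 32.6 to 78.6) and in 7 of 12 increased sites (58.3%, 32.0 to 80.7). Of all sites, 40.7% at basal and 42.1% at increased dosage held it, inside both intervals. Of the 9 loci called at both dosages, 7 held the consensus, and the exceptions were CNTN1 and the widest CNTN4 site. Among all shared sites the share was 58.9% at basal and 58.8% at increased dosage. Of the member sites called at 1 dosage, 1 of 5 at basal, in CNTN4, and 0 of 3 at increased dosage held it, and among all such sites 7.56% and 6.78% did. By family, 4 of 5 basal sites of the L1 genes and 4 of 9 of the contactins held the consensus, and at increased dosage 4 of 4 and 3 of 8 did. These family counts are small and were not tested. Control windows, as wide as the site and 10 kb from it on each side, held it for the members in 0 of 28 cases at basal (95% interval up to 12.1%) and 0 of 24 at increased dosage (up to 13.8%), and the windows beside all sites held it in 1.79% and 1.80%.

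Exact matches lay in a site more often than matches with 1 mismatch. The genome held 816 exact matches, of which 74.5% lay in a basal site and 74.8% in an increased site. All 3 exact matches in the member genes, in L1CAM, NRCAM and CNTN4, lay in a site at both dosages. Of 8057 matches with 1 mismatch in the genome, 12% lay in a basal site and 11.9% in an increased site. In the member genes 3 of 7 did at both dosages, those of L1CAM, NFASC and CNTN2, and the L1CAM one shared its site with the exact match. The 4 unoccupied matches were those of NFASC, CNTN3 and CNTN4 printed above.

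Genes whose products work with the members were described from a list of 16: the CASPR genes CNTNAP1 to CNTNAP5, the receptor phosphatases PTPRZ1 and PTPRG, the ankyrins ANK1 to ANK3, and SPTBN4, GLDN, DCX, NRP1, TNR and TNC. Of these, 10 had a site at basal and 8 at increased dosage, with 25 and 20 sites, and 6, ANK2 among them, had none at either. PTPRG and ANK3 had a site at basal alone. The widest was 199 bp in PTPRG (order number 3719) and 149 bp in ANK3 (order number 4370, best match of 5 mismatches). The share over all protein-coding genes was 13.9% and 13.6%, and over genes of 200 to 500 kb, the class of this list's median length of 234 kb, it was 38.2% and 37.2%. The list ran from 17.5 to 2305 kb, so that class share is not a background for all of it. The widest basal sites were in CNTNAP2, which encodes a juxtaparanodal CASPR protein (1599 bp at basal and 1149 bp at increased dosage), SPTBN4, a spectrin of nodes and initial segments (1149 and 999 bp), the ankyrin gene ANK1 (1049 and 1099 bp) and TNR, an extracellular matrix ligand of contactins (999 and 1049 bp). The best match was exact in the first 3 and had 1 mismatch in TNR. CNTNAP2 held 9 sites at basal and 6 at increased dosage, and TNR held 5 at both.

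Among 20 other neuronal adhesion genes of the immunoglobulin superfamily, 16 had a site at each dosage, 15 of them at both, with 33 sites at basal and 35 at increased dosage. Over all protein-coding genes the shares were 13.9% and 13.6%. These listed genes had a median length of 563 kb, and of all genes over 500 kb 66.4% had a site at basal and 64.2% at increased dosage. Lengths in the list ran from 12.993 to 1743 kb, so that class share is not a background for all of it. Of the listed genes under 500 kb, only MCAM had no site at either dosage. Of those over 500 kb, SDK1 and NEGR1 had none at either. The widest basal sites were in LSAMP (999 bp at basal and 699 bp at increased dosage), DSCAML1 (799 and 749 bp), KIRREL3 (799 and 849 bp) and NTM (749 and 849 bp), all narrower than the site of L1CAM at both dosages. The median length of the members was 310 kb, and no count was adjusted for length.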

How the data were processed

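NRSF/REST ChIP-seq libraries of H295R/TR SF-1 cells were analysed at the basal and the increased SF-1 dosage, 1 library each. ELAND is the aligner that the study's methods name, with hg19 as the genome, and the submitters' processing notes list CASAVA 1.6. The peak caller and its settings for NRSF/REST sites are not given in the sources used here. The deposited lists give the start, end and order number of each site and a score, which the authors set to 1000 for every site and which was therefore not used. Read counts are absent, so depth per library is unknown and precision is that of counts of sites. Peaks were listed per library and not pooled.

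Sites were placed with pysam 0.24.0 in Python 3.11.15, with numpy 2.4.6 for arrays, scipy 1.17.1 for intervals and matplotlib 3.10.9 for plots, on GENCODE release 44 mapped to hg19, with starts counted from 1. No site ran beyond a chromosome end of the reference sequence. A site belonged to a gene if any base lay in it or within 10 kb, and counted as shared if 1 bp or more overlapped a site of the other list. Exon and intron numbers are those of the MANE Select transcript. CTGTCC and GGTGCTG with 2 bases between them were searched on each strand, allowing 2 mismatches over 13 bases, and CAAGGTCA, CAAGGACA and CAAGGCCA without mismatch. Uniqueness was the genome count of every 32-base word of a site. Because no dosage has a second library, no test was made and shares carry Wilson 95% intervals. Placement, overlap and matching were tested on simulated data. The members and lists were chosen with earlier results of these data known. All 10 members are named, and of each of the other 2 lists the 4 genes with the widest basal site are described. The 16 genes of the first of these lists are also all named. In addition, PTPRG, ANK3, ANK2, MCAM, SDK1 and NEGR1 were picked out because they had no site at increased dosage or at either dosage. Genes that overlap a member site are named beside it, as are those that overlap the described sites near L1CAM and CHL1. Alternatives varied the window, the placement, the transcripts, the site threshold, merging, the overlap rule, the mismatches and the sequence searched.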

Additional observations from a re-analysis of the deposited data

How the results depend on the processing

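Of 72 values under 15 alternative settings, 55 moved by less than their counting error or stayed within 1.5 times the count, and 17 moved. The window, the placement of the site, the transcripts, the merging, the overlap rule and the sequence searched moved none of them. Keeping the widest 50% of each list left 7 basal and 6 increased member sites, the latter at 4 genes, of which 85.7% and 100% were shared and 85.7% and 83.3% held the consensus. Against the whole other list, 100% of these were shared at each dosage. Keeping the first 50% by order number left 7 sites at each dosage, of which 100% were shared and 85.7% held the consensus. These settings drop the narrow or late sites by construction, and the shares over all sites under them are not given here. With no mismatch allowed, 21.4% of basal and 25% of increased member sites held the consensus, beside 11.2% and 11.8% of all sites. No paired analysis was possible because each dosage has 1 library and no result comes from a test. The main limits are the single library per dosage, the unknown depth and peak caller settings, and the unexplained order number, so absence from a list cannot be told apart from a signal below the caller's threshold.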
